A study of Homo sapiens with 24 samples.

Results

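Collagens, laminins and integrins, the genes of the pericellular matrix and of its receptors, were followed in T47D-co and T47D-Y, both derivatives of the human breast cancer line T47D. A gene was included where the deposited table lists it under a single symbol of the collagen, laminin or integrin families and where it reached at least 10 scaled fragments in 3 or more libraries. These conditions were met by 48 genes, 28 collagens, 7 laminins and 13 integrins, of 20162 entries tested and 25541 in the table. A further 8 rows carried such a symbol but stayed below the minimum, among them ITGAM, COL4A1 and COL8A1. Nearest to the limit were ITGAM outside it, with 1 library at 10 or more and a highest value of 11.0, and COL8A2 inside it, with 4 such libraries. A further 17 symbols, among them LAMC1, COL4A2, ITGB5 and ITGA1, stood only in rows merged with other genes and were not analysed here. The labels call T47D-co positive for the progesterone receptor and T47D-Y null, so that line and receptor status cannot be told apart. Both lines were grown in medium with serum and insulin. They were given interferon-alpha (IFN) at 20 IU per ml, or water, over 18 hours, and after that R5020, a synthetic progestin, at 10 nM, or ethanol (EtOH) as its vehicle, over 6 hours. With 3 biological replicates in each, the 8 groups were T47D-co with R5020 and IFN, with EtOH and IFN, with R5020 and water and with EtOH and water, and T47D-Y with the same 4 treatments. Libraries with EtOH and water are called untreated.

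Laminins are trimers of an alpha, a beta and a gamma chain and, with type IV collagen, form the sheet of the basement membrane on which epithelial cells rest. Fibrillar collagens build the tensile fibres of the stroma, FACIT collagens decorate those fibres, and transmembrane collagens such as COL13A1 and COL17A1 sit in the cell's own surface. Integrins are pairs of an alpha and a beta chain that bind these proteins and tie them to the cytoskeleton. In breast epithelium the pair of ITGA6 and ITGB4 holds cells to laminin at hemidesmosomes.

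Levels are given in scaled fragments, which are estimated fragments after 1 scaling common to the 24 libraries. Differences and changes are log2 estimates with their SE from limma, with 1 added to each value before the log. Calls were made where the Benjamini-Hochberg adjusted p, taken over all 20162 entries, was under 0.05. Depth was 14141309 to 33607490 estimated fragments per library. In 4 libraries, all given water, the share of mitochondrial transcripts was 0.942 to 1.07%, against 3.17 to 4.74% in the other 20. These 4 were replicate 2 of T47D-co with EtOH, replicates 1 and 2 of T47D-Y with R5020, and replicate 1 of T47D-Y with EtOH. Without them 249 of 270 member calls stood and 21 fell below the threshold, with no change of direction. PGR, the progesterone receptor gene, averaged 26497 ± 1399.6 scaled fragments in untreated T47D-co and 693 ± 37.6 in untreated T47D-Y (SD, n = 3 each). Of 8 luminal epithelial markers 7 were tested, with a summed level of 58632 to 93111 scaled fragments in T47D-co and 92002 to 100562 in T47D-Y. Endothelial CDH5 stayed at or below 7.44 and leukocyte PTPRC at or below 9.22 scaled fragments in every library. The 3 fibroblast markers tested, ACTA2, VIM and THY1, had sums of 350.0 to 533 scaled fragments in T47D-co libraries and 291.5 to 351.5 in T47D-Y libraries. The part of these markers in the results was not tested, and in such bulk libraries fewer cells of a type and less RNA per cell cannot be told apart.

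The lines differed in most of the matrix and receptor genes before any treatment, and collagens were mostly the lower ones in T47D-co. Of the 48 genes 40 were called between untreated T47D-co and untreated T47D-Y, which is 83.3% of them, against 63.1% of all entries tested. In T47D-co 10 were higher (29.7% of all entries) and 30 lower (33.4% of all entries), and 5 of the higher and 19 of the lower differed at least 2-fold, as did 19.8% of all entries. The median difference of the 48 was -0.63 on the log2 scale and that of all entries -0.04. Without the 4 libraries low in mitochondrial transcripts 36 were called. By family, 6 collagens were higher and 20 lower of 28, 2 laminins higher and 3 lower of 7, and 2 integrins higher and 7 lower of 13, with median differences of -1.62, -0.43 and -0.34. The libraries of the 2 lines did not overlap for 42 of the 48 genes, as was so for 68.8% of all entries.

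Among the laminins the beta chain LAMB3, which joins LAMA3 in the laminin of hemidesmosomes, fell furthest. LAMB3 held 177, 171 and 164 scaled fragments in untreated T47D-co, against 1422, 1474 and 1459 in untreated T47D-Y. Every T47D-Y library lay far above every T47D-co library, and the difference was -3.08 ± 0.07 (adjusted p = 7.93e-22). LAMA3, the alpha chain of the same trimer, was slightly higher in T47D-co, with 1229, 1277 and 1211 scaled fragments there and 933, 919 and 953 in T47D-Y, a difference of 0.40 ± 0.05 (adjusted p = 1.41e-07) without overlap. LAMA5, the alpha chain most widely found in epithelial basement membranes, had 5157, 4601 and 4814 scaled fragments in T47D-co and 7022, 6215 and 6457 in T47D-Y, lower by a log2 difference of -0.43 ± 0.08. LAMB2, a beta chain that pairs with LAMA5, went the other way at 0.50 ± 0.05 and lay above in every T47D-co library, with 3936, 3751 and 3787 scaled fragments in T47D-co and 2869, 2663 and 2611 in T47D-Y. The gamma chain LAMC3 averaged 4.25 ± 0.381 scaled fragments in T47D-co and 26.3 ± 4.14 in T47D-Y (SD, n = 3 each). LAMA2 and LAMB4 were not called.

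Type IV collagen chains differed by pair. COL4A3 and COL4A4, which assemble with COL4A5 in specialised basement membranes, are neighbours transcribed away from each other, and both were low in T47D-co. COL4A3 held 5.80, 18.4 and 14.1 scaled fragments in untreated T47D-co and 188, 182 and 141 in untreated T47D-Y, a difference of -3.75 ± 0.27 (adjusted p = 3.72e-12). COL4A4 held 27.0, 22.9 and 32.3 in T47D-co and 298, 305 and 299 in T47D-Y, -3.42 ± 0.12 (adjusted p = 1.92e-18). In both genes, all 3 T47D-co libraries were far below all 3 T47D-Y libraries, with T47D-co means of 7.50 and 9.10% of the T47D-Y means. COL4A4 is alone at its locus (chr2:227867426-228028829 in the files' build, hg19), whereas COL4A3 shares one with MFF, and summed over that locus the difference was -0.19. COL4A5 and COL4A6, the pair on the X chromosome, differed less. COL4A5 averaged 1859 ± 79.0 scaled fragments in T47D-co and 1657 ± 101 in T47D-Y, 0.17 ± 0.05, with a reversed estimate of -0.068 on the deposited scale and no call without replicate 2 of T47D-Y with EtOH (0.13). COL4A6 averaged 216 ± 27.4 in T47D-co and 275 ± 16.2 in T47D-Y, -0.35 ± 0.09, or 0.14 when summed over the locus it shares with ATG4A.

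The starts of COL4A3 and COL4A4 lie 419 bases apart in RefSeq, so that the 250 bases upstream of one reach toward the other. They are shown because both genes were low together in T47D-co, read 5′ to 3′ on each gene's own strand from GRCh38.p14, COL4A3 from chr2:227164374-227164623 (plus strand) and COL4A4 from chr2:227164206-227164455 (minus strand).
COL4A3: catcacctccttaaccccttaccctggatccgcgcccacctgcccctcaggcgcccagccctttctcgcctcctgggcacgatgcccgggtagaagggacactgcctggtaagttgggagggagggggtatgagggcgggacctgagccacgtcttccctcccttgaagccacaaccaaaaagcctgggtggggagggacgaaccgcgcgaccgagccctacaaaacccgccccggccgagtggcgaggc
COL4A4: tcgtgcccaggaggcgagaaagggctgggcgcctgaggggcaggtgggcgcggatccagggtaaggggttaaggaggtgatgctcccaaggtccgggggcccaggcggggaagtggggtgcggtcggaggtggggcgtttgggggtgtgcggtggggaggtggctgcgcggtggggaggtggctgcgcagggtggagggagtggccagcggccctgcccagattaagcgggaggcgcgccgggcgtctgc
The windows hold 66.4 and 72.8% G and C, and neither holds the progestin half-site described with the R5020 results.

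Other collagens of T47D-Y were likewise low in T47D-co. COL14A1, a FACIT collagen of fibril surfaces, held 12.5, 13.6 and 21.9 scaled fragments in untreated T47D-co, against 347, 379.9 and 332 in untreated T47D-Y. Its difference of -4.42 ± 0.20 was the greatest fall among the 37 genes that reached 50 scaled fragments in either group. COL9A2, a cartilage FACIT chain, held 78.0, 87.1 and 66.9 in T47D-co and 675, 704 and 749 in T47D-Y, -3.19 ± 0.11, again without overlap. Its partner chain COL9A3 fell by 2.91 on the log2 scale, but summed over the locus shared with TCFL5 the difference was 0.031. COL18A1, the precursor of endostatin, averaged 188 ± 1.97 in T47D-co and 641 ± 31.5 in T47D-Y, -1.76 ± 0.08, or -1.04 over its locus. COL5A1, which nucleates collagen fibrils, averaged 145 ± 3.83 in T47D-co and 547 ± 11.3 in T47D-Y, -1.91 ± 0.09. Type VI collagen, which forms beaded filaments, was lower in T47D-co in all 4 of its tested chains, by -0.83 ± 0.13 for COL6A1, -2.34 ± 0.19 for COL6A2, -3.19 ± 0.49 for COL6A5 and -0.25 ± 0.11 for COL6A6. Leaving out any 1 of the 6 libraries ended the COL6A6 call (-0.28 to -0.19), and COL6A5 was at 0.714 to 1.15 scaled fragments in the T47D-co libraries, with a difference of -1.87 at a pseudocount of 5.

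Against this trend a few collagens were higher in T47D-co. COL12A1, a FACIT collagen that links fibrils under tension, held 19158, 19094 and 19068 scaled fragments in untreated T47D-co and 7934, 8283 and 8641 in untreated T47D-Y. Its T47D-co values were all above the T47D-Y values, by 1.21 ± 0.03 (adjusted p = 9.69e-21). COL1A1, a chain of the main fibrillar collagen, held 465, 456 and 437 in T47D-co and 181, 197 and 198 in T47D-Y, 1.23 ± 0.11 (adjusted p = 1.65e-10). COL7A1, the anchoring fibril of skin, differed by 0.74 ± 0.15 and COL26A1 by 0.53 ± 0.16. The COL26A1 call was lost without the 4 libraries low in mitochondrial transcripts (0.42, adjusted p = 0.0897) and on the deposited scale (0.30). COL2A1, with 15.4 to 32.3 scaled fragments in T47D-co and 0.827 to 7.53 in T47D-Y, differed by 2.10 ± 0.47, or 1.36 without replicate 1 of T47D-Y with EtOH.

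**Figure D1:**
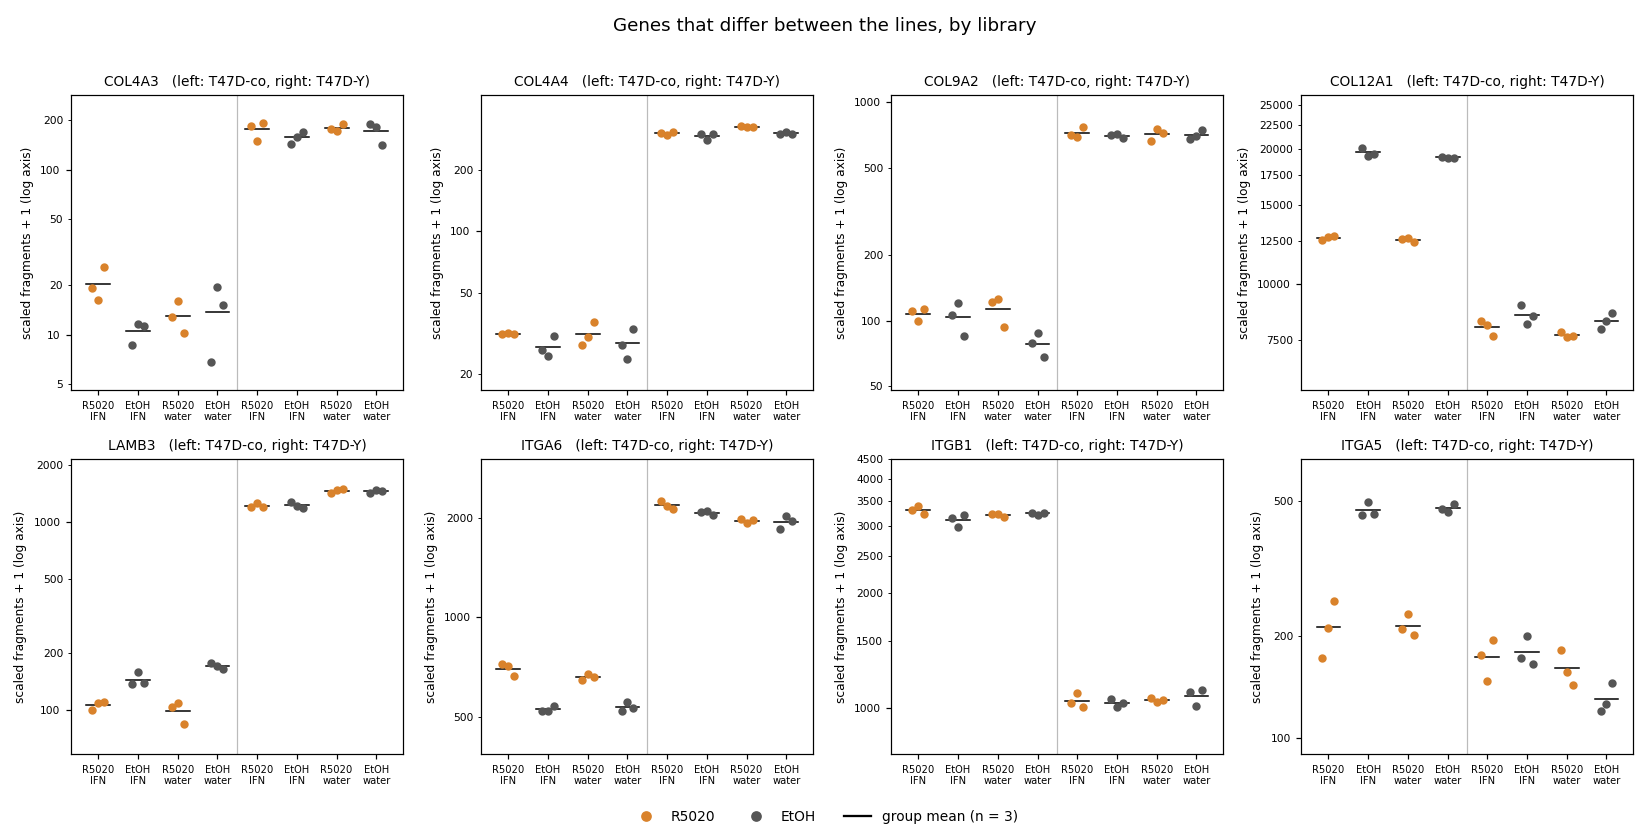
Scaled fragments plus 1 (log axis) of 8 genes that differ between the lines, with 1 point per library, the 8 groups along the x axis (T47D-co left of the line, T47D-Y right of it), R5020 in orange, EtOH in grey and a bar at each group mean (n = 3). COL4A3, COL4A4, COL9A2, LAMB3 and ITGA6 lie lower and COL12A1 and ITGB1 higher in every T47D-co library than in every T47D-Y library.

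Integrin chains differed in both directions. ITGB1, the beta chain shared by most matrix receptors, held 3253, 3218 and 3249 scaled fragments in untreated T47D-co, against 1096, 1009 and 1115 in untreated T47D-Y. The T47D-co libraries were about level with each other and all above T47D-Y, by 1.59 ± 0.04 (adjusted p = 8.57e-22), and the sum over its locus gave 1.59. ITGA5, which pairs with ITGB1 in the fibronectin receptor, held 473, 463 and 488 in T47D-co and 119.7, 125 and 145 in T47D-Y, 1.87 ± 0.12, but -0.44 when summed over a locus that also holds ZNF385A. ITGA6, the laminin receptor chain of hemidesmosomes, held 518, 554 and 529 in T47D-co and 1849, 2021 and 1954 in T47D-Y, -1.86 ± 0.04 (adjusted p = 8.72e-23), and -0.40 over the locus shared with PDK1. All 3 tested laminin-binding alpha chains were lower in T47D-co, ITGA3 by -0.68 ± 0.07 and ITGA7 by -0.58 ± 0.21 beside ITGA6. ITGB4, the partner of ITGA6, was lower by -0.33 ± 0.06. ITGB2, a beta chain of leukocytes, averaged 21.7 ± 4.48 in T47D-co and 93.9 ± 2.16 in T47D-Y, -2.08 ± 0.19, or -2.19 over its locus. The calls of ITGB6 (-0.20 ± 0.08) and ITGB7 (-0.37 ± 0.15) did not stand in 4 of 6 fits with 1 library fewer (-0.27 to -0.15 for ITGB6 and -0.45 to -0.27 for ITGB7), and that of ITGA7 in 3 of 6 (-0.76 to -0.44). ITGA2, a collagen receptor chain, and ITGAV, the vitronectin receptor chain, differed by 0.01 ± 0.05 and -0.07 ± 0.05 and were not called.

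**Figure D2:**
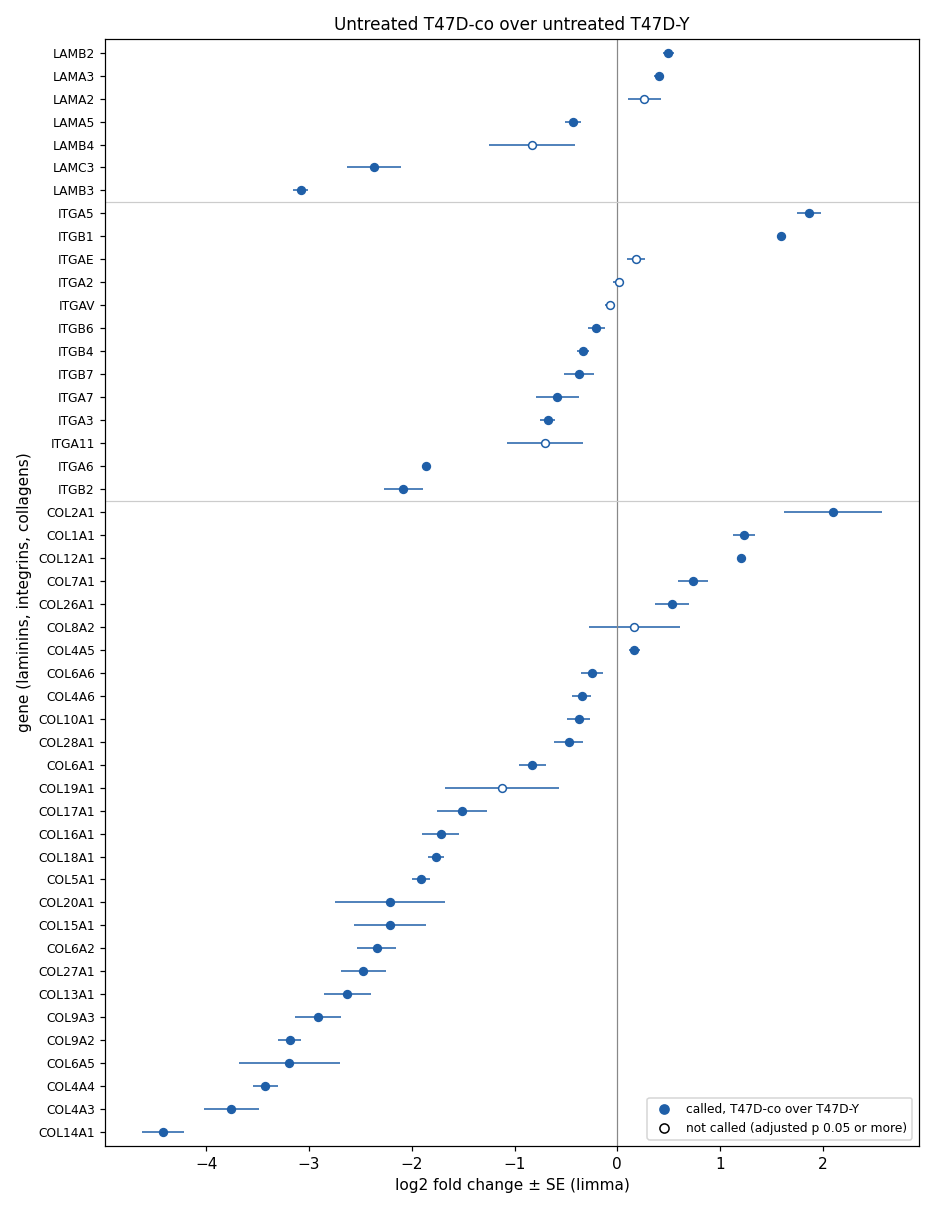
Log2 fold change ± SE (x axis, limma) of untreated T47D-co over untreated T47D-Y for each of the 48 genes (y axis, grouped as laminins, integrins and collagens), filled where called. Called differences run from -4.42 for COL14A1 to 2.10 for COL2A1, and 30 of the 40 lie below 0.

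The line difference was called for most members under each treatment. With R5020, 42 members were called (68.5% of all entries), 12 higher in T47D-co (32% of all entries) and 30 lower (36.6%). With IFN, 40 were called (62.6%), 8 higher (29.6%) and 32 lower (33%), and with both agents 39 (68.3%), 12 higher (32.5%) and 27 lower (35.8%). Without the libraries low in mitochondrial transcripts the R5020 count was 35. In all 4 conditions 26 genes, 54.2% of the members beside 20.5% of all entries, were called lower in T47D-co, including LAMB3, LAMA5, COL4A3, COL4A4, COL14A1, COL9A2, ITGA6, ITGA3 and ITGB4. Over their shared loci the calls of LAMA5 with IFN (-0.10), of COL4A6 with IFN (-0.10) and of COL4A3 with both agents (-0.094) were lost. Locus sums were reversed for COL9A3 in all 4 conditions (0.031 untreated, 0.48 with R5020, 0.15 with IFN and 0.52 with both). So were those of COL16A1 with R5020 (0.087) and with both (0.022), and of COL4A6 untreated (0.14). With 1 library fewer, calls of COL6A6, COL20A1, ITGA7, ITGB6 and ITGB7 were lost in 2 to 6 of 6 fits in some conditions. In all 4 conditions 6 genes, COL12A1, COL1A1, COL7A1, ITGA5, ITGB1 and LAMA3, were called higher, or 12.5% beside 17.6% of all entries. For ITGA5 the locus sum was lower in T47D-co in all 4 (-0.44 untreated, -1.63 with R5020, -0.49 with IFN and -1.78 with both), its call with R5020 was lost on the deposited scale (0.21), and that with both agents in 4 of 6 fits with 1 library fewer (0.15 to 0.43). COL13A1 was called lower in T47D-co without R5020 and higher with it, in both IFN states, and so was COL10A1, whose untreated call was lost in 1 of 6 fits (-0.50 to -0.25) and without the libraries low in mitochondrial transcripts (-0.31). LAMC3, ITGAV and COL4A5 also had calls in both directions, but not all of these stood. For LAMC3 the higher call with R5020 was lost in 3 of 6 fits (0.65 to 0.79), on the deposited scale (0.49) and without the low mitochondrial libraries (0.78), and that with both agents in 1 of 6 (0.60 to 1.08). For ITGAV the lower call with IFN was lost in 4 of 6 fits (-0.16 to -0.097) and on the deposited scale (-0.062), and its higher call with R5020 on the deposited scale (0.0052) and by quantile normalization (0.084). For COL4A5, higher only untreated as given above, the lower call with R5020 was lost in 2 of 6 fits (-0.18 to -0.13) and without the low mitochondrial libraries (-0.14). COL8A2, ITGA11 and LAMA2 were called in no condition. These 4 comparisons share no library. ITGB1 averaged 3314, 3115, 3206 and 3240.1 scaled fragments in T47D-co with both agents, IFN, R5020 and neither, against 1041, 1029, 1048 and 1073 in T47D-Y.

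In T47D-co 6 hours of R5020 moved the matrix and receptor genes in both directions. In the libraries given water 29 of the 48 genes were called, or 60.4% beside 56.5% of all entries tested, 13 higher with R5020 (26.6% of all entries) and 16 lower (30%). In the libraries given IFN 31 were called, or 64.6% beside 58.1%, 14 higher (27.5%) and 17 lower (30.6%). These shares are near those of all entries. With water 6 rose and 5 fell at least 2-fold, as did 15.2% of all entries in either direction, and the groups did not overlap for 32 genes, as for 61.7% of all entries. Called in the same direction in both IFN states were 10 genes that rose, or 20.8% of the members beside 23% of all entries, and 14 that fell, or 29.2% beside 24.2%. No gene was called in opposite directions, 12 were called in 1 state and 12 in neither. Without the low mitochondrial libraries 28 and 30 were called. The collagens divided evenly, with 9 higher and 7 lower of 28 in water libraries, while 2 integrins were higher and 6 lower of 13.

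The laminin chains moved apart. LAMA3 held 3058, 3354 and 3377 scaled fragments in T47D-co given R5020, against 1229, 1277 and 1211 given EtOH. Every R5020 library exceeded every EtOH library, by 1.40 ± 0.05 (adjusted p = 5.04e-18), a mean 2.63-fold higher. With IFN the values were 3396, 3516 and 3628 with R5020 and 1214, 1257 and 1234 with EtOH, 1.51 ± 0.05. LAMC3, a gamma chain, rose too, to 37.8, 31.1 and 37.7 scaled fragments with R5020, against 3.85, 4.28 and 4.61 with EtOH, 2.80 ± 0.26 (adjusted p = 1.2e-09), or 2.13 with a pseudocount of 5. All 3 R5020 values lay above those of T47D-Y with R5020, which were 22.6, 21.6 and 20.2. LAMA5, LAMB3 and LAMB2 fell, while LAMA2 and LAMB4 were called in neither IFN state. LAMA5 held 2847, 3359 and 2829 with R5020 and 5157, 4601 and 4814 with EtOH, without overlap, -0.69 ± 0.08 (adjusted p = 1.75e-08), and -0.28 summed over its locus. LAMB3 held 103, 108 and 83.2 with R5020 and 177, 171 and 164 with EtOH, -0.80 ± 0.07 (adjusted p = 8.51e-10). LAMB2 fell by 0.40 ± 0.05 on the log2 scale. With IFN, LAMA5 changed by -0.89 ± 0.08, LAMB3 by -0.44 ± 0.07 and LAMB2 by -0.48 ± 0.05.

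Several collagens that were scarce in untreated T47D-co rose with R5020. COL13A1, a transmembrane collagen of cell adhesion sites, held 70.9, 73.1 and 74.1 scaled fragments with R5020, against 7.70, 6.43 and 3.46 with EtOH. The R5020 libraries were close together and far above, by 3.48 ± 0.23 (adjusted p = 9.7e-13), or 2.86 with a pseudocount of 5. COL27A1, a fibrillar collagen first described in cartilage, held 52.5, 43.7 and 33.8 with R5020 and 7.70, 5.71 and 9.22 with EtOH, 2.37 ± 0.22 (adjusted p = 8.16e-10). In T47D-Y it was at 46.5 with R5020 and 46.1 with EtOH. The line difference of COL27A1 was -0.11 ± 0.22 among R5020 libraries and not called, against -2.47 ± 0.22 among untreated ones. COL26A1 held 302, 357 and 319 with R5020 and 78.0, 78.6 and 58.8 with EtOH, 2.18 ± 0.16 (adjusted p = 1.63e-11), a mean 4.54-fold higher. Smaller rises were those of COL5A1 (0.85 ± 0.09), COL10A1 (0.78 ± 0.12), COL16A1 (0.76 ± 0.18) and COL9A2 (0.53 ± 0.11). With IFN these were 0.66 ± 0.09, 0.91 ± 0.12 and 0.49 ± 0.18 for COL5A1, COL10A1 and COL16A1, while COL9A2 changed by 0.06 ± 0.11 and was not called. COL10A1, a collagen of growth plate cartilage, shares its locus with NT5DC1, and the sum over it rose by 0.58. With 1 library fewer COL16A1 with IFN lost its call in 3 of 6 fits (0.39 to 0.60).

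Other collagens fell. COL28A1, a beaded-filament collagen, held 39.6, 28.6 and 41.6 scaled fragments with R5020, against 177, 166 and 166 with EtOH. The 3 R5020 libraries all lay far below, by -2.20 ± 0.14 (adjusted p = 7.03e-13), a mean 21.6% of that with EtOH. With IFN the values were 29.2, 31.7 and 25.3 with R5020 and 162, 133 and 179 with EtOH, -2.41 ± 0.14. COL12A1, the most abundant of the 48 per length, held 12578, 12649 and 12399 with R5020 and 19158, 19094 and 19068 with EtOH, -0.61 ± 0.03 (adjusted p = 1.88e-14). Although R5020 lowered it, every T47D-co value stayed above every T47D-Y value. COL1A1 changed by -0.41 ± 0.11 and with IFN by -0.59 ± 0.11. COL18A1 changed by -0.29 ± 0.08, but its locus sum by 0.25. The low calls of COL2A1 and COL19A1 in water libraries were each lost in 2 of 6 fits with 1 library fewer (-1.45 to -0.94 and -1.70 to -1.10), and that of COL6A2, which was higher, in 4 (0.43 to 0.70). At a pseudocount of 5 the COL19A1 call was lost too (-0.58). Of the type IV chains 1 was called with water, with -0.21 ± 0.05 called for COL4A5 and 0.02 ± 0.27, 0.15 ± 0.12 and -0.08 ± 0.09 not called for COL4A3, COL4A4 and COL4A6. COL4A3 with IFN was called at 0.94 ± 0.27, a call lost with voom weights (adjusted p = 0.0558), and 0.18 over its locus.

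Among the receptors ITGB6, the beta chain that pairs with ITGAV to activate latent TGF-beta, changed most. ITGB6 held 119, 97.5 and 113 scaled fragments with R5020, against 406, 377 and 415 with EtOH. No value overlapped, and the fall was -1.86 ± 0.08 (adjusted p = 5.38e-16), to 27.5% of the EtOH mean. With IFN it held 122, 113 and 127 with R5020 and 466, 492 and 511 with EtOH, -2.02 ± 0.08. ITGA5 held 209, 232 and 200.4 with R5020 and 473, 463 and 488 with EtOH, -1.15 ± 0.12 (adjusted p = 8.27e-09), and -1.22 over its locus. T47D-Y given R5020 held 181, 156 and 142, below all 3 R5020 libraries of T47D-co. ITGB7, a lymphocyte homing chain, fell by 0.78 ± 0.15 on the log2 scale, ITGA2 by 0.43 ± 0.05, ITGB4 by 0.35 ± 0.06 and ITGA3 by 0.24 ± 0.07, and all 4 were called again with IFN. In the opposite direction ITGA6 held 644, 674 and 658 with R5020 and 518, 554 and 529 with EtOH, 0.30 ± 0.04 (adjusted p = 4.82e-07), and ITGAV rose by 0.27 ± 0.05. ITGA6 and ITGB4, the chains of the hemidesmosome receptor, moved in opposite directions, as did ITGAV and ITGB6. ITGB1 did not pass the test, at -0.02 ± 0.04 with water and 0.09 ± 0.04 with IFN.

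**Figure D3:**
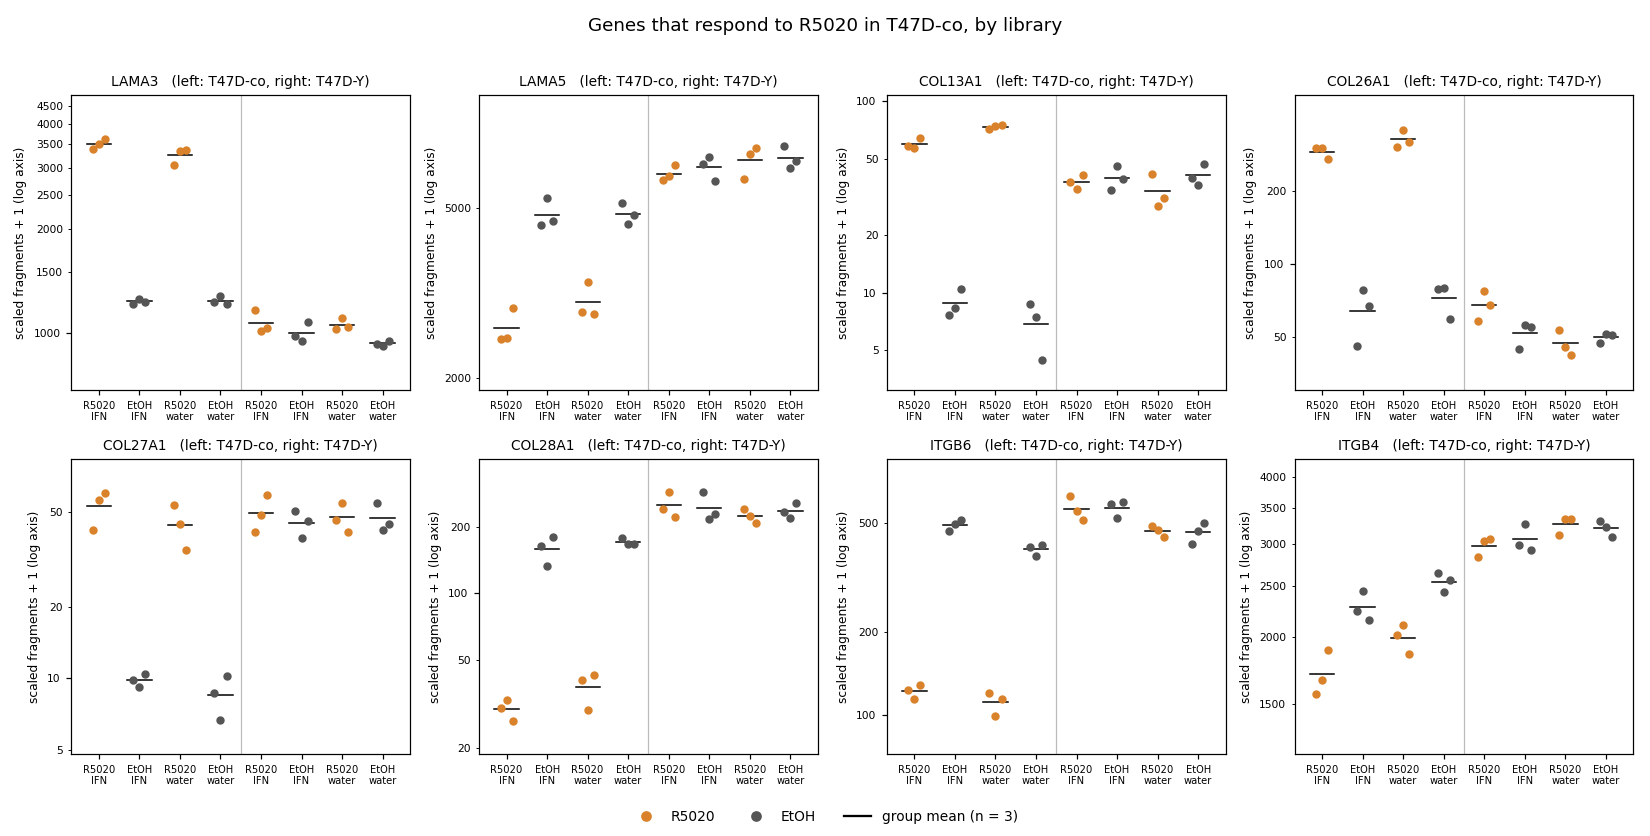
Scaled fragments plus 1 (log axis) of 8 genes called with R5020 in T47D-co, with 1 point per library, the 8 groups along the x axis (T47D-co left of the line, T47D-Y right of it), R5020 in orange, EtOH in grey and a bar at each group mean (n = 3). LAMA3, COL13A1, COL26A1 and COL27A1 lie higher and LAMA5, COL28A1, ITGB6 and ITGB4 lower with R5020 in T47D-co. In T47D-Y no gene was called.

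Promoter windows of RefSeq (GRCh38.p14, 250 bases upstream of a start) could be matched for 36 of the 48 genes, with 46 windows. The progestin half-site AGAACA, or its reverse complement TGTTCT, stands in 12.39% of 35116 windows of all genes. Among the members it stands in 5 windows of 4 genes, ITGB6, LAMB3, ITGA6 and COL5A1. That is 2 of the 12 with a window that rose with R5020 in T47D-co given water, 2 of the 12 that fell and 0 of the 12 not called. These counts are of genes, some with more than 1 window, whereas 12.39% is a share of windows. The full palindrome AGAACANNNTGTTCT stands in 1 window of all genes and in 0 member windows. The windows of the genes with the steepest fall among receptors and the main rises among laminins and collagens are ITGB6 from chr2:160200273-160200522 (minus strand), LAMA3 from chr18:23872770-23873019 and COL13A1 from chr10:69801656-69801905 (both plus strand), with the half-site in capitals.
ITGB6: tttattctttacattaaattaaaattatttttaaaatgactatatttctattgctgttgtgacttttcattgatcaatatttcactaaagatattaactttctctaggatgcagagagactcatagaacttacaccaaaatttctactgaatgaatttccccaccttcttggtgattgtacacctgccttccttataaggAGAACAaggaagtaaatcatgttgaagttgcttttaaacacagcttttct
LAMA3: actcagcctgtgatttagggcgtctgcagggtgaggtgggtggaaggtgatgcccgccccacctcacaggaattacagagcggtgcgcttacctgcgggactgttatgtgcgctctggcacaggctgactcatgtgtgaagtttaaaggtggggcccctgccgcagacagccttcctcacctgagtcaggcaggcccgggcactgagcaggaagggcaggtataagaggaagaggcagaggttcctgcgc
COL13A1: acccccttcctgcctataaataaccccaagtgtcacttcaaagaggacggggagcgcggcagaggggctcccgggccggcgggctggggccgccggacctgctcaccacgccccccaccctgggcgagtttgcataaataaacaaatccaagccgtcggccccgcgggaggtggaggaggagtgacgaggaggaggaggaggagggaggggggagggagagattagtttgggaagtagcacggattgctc
The ITGB6 window holds 30.0% G and C, the LAMA3 window 60.4% and the COL13A1 window 64.0%. Only the listed window of each of these genes was searched, and any other start was not examined.

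In T47D-Y none of the 48 genes was called with R5020. In the libraries given water 0 were called by limma, beside 0.218% of all entries, and 3 had an unadjusted p under 0.05. In the libraries given IFN 0 were called, beside 0.298% of all entries, again with 3 at an unadjusted p under 0.05, and voom weights likewise called 0 in both. Among the 36 genes with at least 50 scaled fragments in either water group the estimates ran from -0.11 ± 0.19 for ITGB2 to 0.29 ± 0.12 for ITGA5. LAMA3 held 1031, 1104 and 1043 scaled fragments in T47D-Y with R5020 and 933, 919 and 953 with EtOH, 0.18 ± 0.05 (adjusted p = 0.362). ITGB6 held 487, 472 and 444 with R5020 and 418, 468 and 498 with EtOH, 0.02 ± 0.08, and its groups overlapped. Over the 48 genes 6 had no overlap, or 12.5%, beside 10.6% of all entries.

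The R5020 effect itself differed between the lines for 22 members in water libraries, beside 44.6% of all entries. As a signed log2 change it was greater in T47D-co for 10 (21.6% of all entries) and lesser for 12 (23%). Lesser changes include those of genes that fell further in T47D-co, such as COL28A1 and ITGB6. In IFN libraries the effect differed for 21, beside 46%, 9 greater (22.9%) and 12 lesser (23.1%). Called in both were 19, or 39.6% of the members beside 36% of all entries, among them all 5 laminins called with R5020 in T47D-co. For LAMA3 the effect in T47D-co exceeded that in T47D-Y by 1.22 ± 0.07 on the log2 scale (adjusted p = 2.5e-13), and for COL13A1 by 3.77 ± 0.32. For ITGB6 it was -1.88 ± 0.12 (adjusted p = 1.07e-12) and for COL28A1 -2.12 ± 0.20. COL1A1 and COL16A1, though called in T47D-co, did not pass the test of the difference at -0.35 ± 0.15 and 0.57 ± 0.26.

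**Figure D4:**
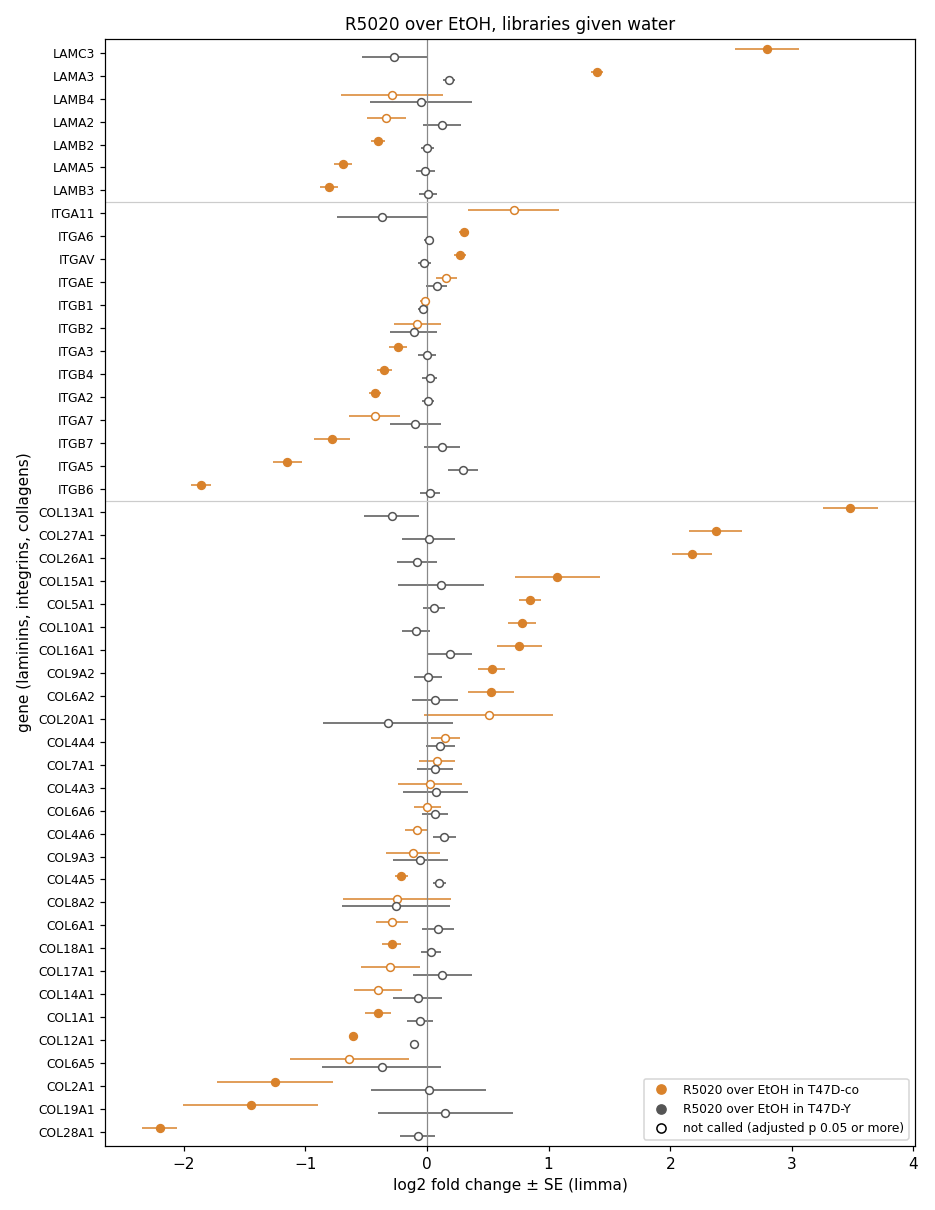
Log2 fold change ± SE (x axis, limma) of R5020 over EtOH in libraries given water, for each of the 48 genes (y axis, grouped as laminins, integrins and collagens), in T47D-co (orange) and T47D-Y (grey), filled where called. Filled orange points run from -2.20 for COL28A1 to 3.48 for COL13A1, and no grey point is filled.

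Few matrix and receptor genes were called with IFN. In T47D-co given EtOH 0 of 48 were called with IFN by limma, beside 1% of all entries (7 at an unadjusted p under 0.05), and 1 was called without replicate 2 and 1 without replicate 3 of the IFN libraries. In T47D-co given R5020 COL4A5 rose by 0.18 ± 0.05 and ITGB4 fell by 0.23, 2 calls beside 11.3% of all entries (7.57% higher and 3.69% lower). In T47D-Y given EtOH ITGA5 rose by 0.45 ± 0.12 and ITGB6 by 0.30 ± 0.08, 2 calls beside 4.44% (2.51% higher and 1.93% lower). In T47D-Y given R5020 ITGA6 rose by 0.15 ± 0.04 and LAMB3 fell by 0.26, 2 calls beside 4.77% (3.08% higher and 1.69% lower). Each of these 6 calls was lost in at least 4 of 6 fits with 1 library fewer. Summed over their shared loci ITGA5 (0.079) and ITGA6 (0.095) were not called, while ITGB4 was (-0.24). From the steps of the deposited values, the IFN and the water libraries of each line were read as scaled separately. These IFN differences therefore rest on the common scaling used here. On the deposited scale COL4A5, ITGA5, ITGB6 and ITGA6 were reversed at -0.012, -0.021, -0.18 and -0.33, and the median change over all entries was -0.18, -0.16, -0.47 and -0.48 for T47D-co with EtOH and R5020 and T47D-Y with EtOH and R5020. On that scale 17, 14, 34 and 32 members were called in these 4 comparisons, or 35.4, 29.2, 70.8 and 66.7% of them beside 41.9, 35.7, 73 and 73.3% of all entries. In the same libraries IFI6, an interferon-induced gene, averaged 3359 ± 171 scaled fragments in T47D-co with IFN and 299 ± 3.26 with water, and 3555 ± 117 in T47D-Y with IFN and 90.9 ± 11.2 with water.

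ITGB6 held 584, 520.0 and 595 scaled fragments in T47D-Y given IFN and 418, 468 and 498 given water, and the 3 IFN libraries lay above the 3 water libraries. ITGA5 held 171, 199 and 165 given IFN and 119.7, 125 and 145 given water, also without overlap, though its locus sum was not called (0.079). Groups without overlap were found for 9 of the 48 genes in that comparison (21.6% of all entries). The IFN effect was called different between the lines for 0 members (0.377% of all entries, 4 at an unadjusted p under 0.05), or 15 on the deposited scale, which is 31.2% of them beside 47.2% of all entries. The R5020 effect with IFN and that with water were not called different for any member in T47D-co (0 called by limma, beside 1.01% of all entries, 11 at an unadjusted p under 0.05) or in T47D-Y (0 called, beside 0% of all entries, 0 at an unadjusted p under 0.05).

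**Figure D5:**
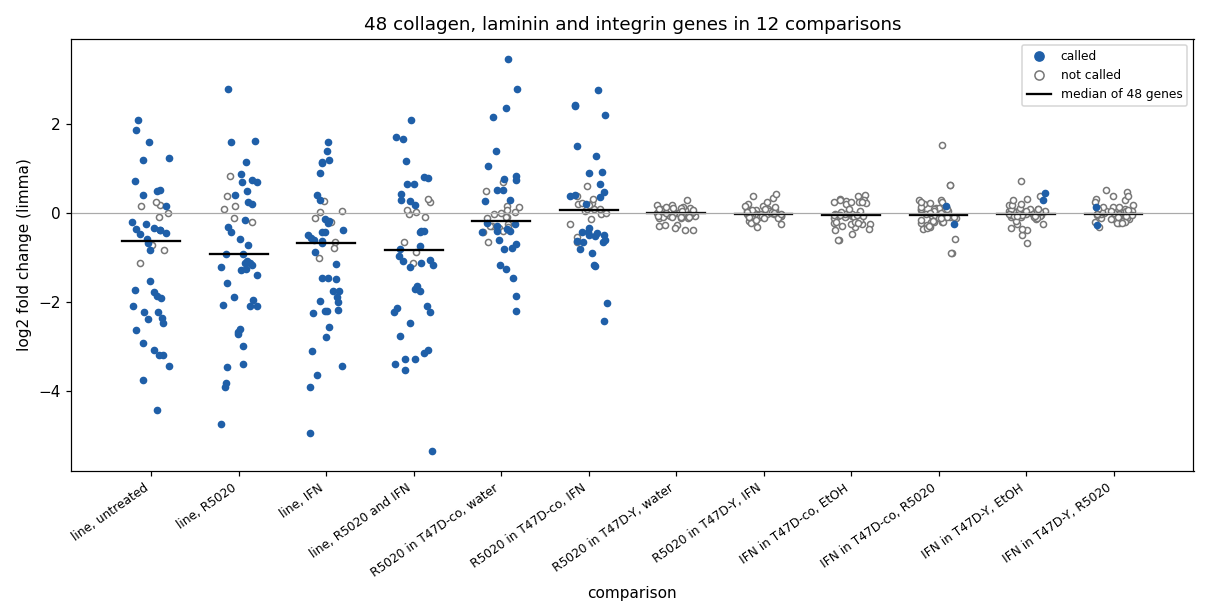
Log2 fold changes (y axis, limma) of the 48 genes in 12 comparisons (x axis), with 1 point per gene, filled where called, and a bar at the median of the 48. The line comparisons run from -5.34 to 2.79, R5020 in T47D-co from -2.41 to 3.48, R5020 in T47D-Y from -0.37 to 0.43 and IFN from -0.90 to 1.54.

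Per kilobase of exon, COL12A1 led the 48 genes in both lines, with 1577 ± 3.82 scaled fragments per kb in untreated T47D-co and 684 ± 29.2 in untreated T47D-Y (SD, n = 3 each). In T47D-co the next levels per kb were ITGB1 (824 ± 4.86), LAMB2 (664 ± 17.0), LAMA5 (425 ± 24.5) and ITGB4 (411 ± 17.5), and the last 2 lay within their SDs of each other. In T47D-Y they were LAMA5 (575 ± 36.3), ITGB4 (518 ± 18.4), LAMB2 (471 ± 23.7), ITGA6 (332 ± 14.8) and LAMB3 (323 ± 5.98), of which ITGA6 and LAMB3 lay within their SDs of each other. ITGAV (277 ± 10.1) and ITGB1 (273 ± 14.4) followed there within their SDs of each other.

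Genes that make, cut and bind this matrix were read beside the members. Of 21 tested genes of collagen processing 9 rose and 2 fell with R5020 in T47D-co given water, and the median change of the 21 was 0.13 beside -0.04 over all entries. In that comparison, to which the lists that follow also belong, 26.6% of all entries rose and 30% fell. P4HA3, a prolyl hydroxylase subunit, averaged 88.0 ± 9.55 scaled fragments with R5020 and 17.7 ± 3.28 with EtOH, 2.26 ± 0.24. LOX, which crosslinks collagen, averaged 159 ± 28.6 with R5020 and 49.3 ± 11.6 with EtOH, 1.68 ± 0.37, and ADAMTS2, which trims procollagen, 23.0 ± 10.4 with R5020 and 2.34 ± 2.03 with EtOH. Of 14 other matrix genes 4 rose and 4 fell. THBS1, thrombospondin, rose by 1.76 ± 0.05 to 13257 ± 284 with R5020, against 3913 ± 116 with EtOH, while FN1, fibronectin, changed by -0.69 ± 0.05. Of 8 tested matrix proteases and inhibitors 1 rose, MMP15 (2.60 ± 0.09), and 3 fell, MMP16 (-2.22 ± 0.08), MMP13 (-1.97 ± 0.52) and MMP24 (-1.06 ± 0.07).

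Of 18 tested integrin adaptors 8 rose and 6 fell with R5020 in T47D-co given water, where 26.6% of all entries rose and 30% fell. The actin crosslinker ACTN1 averaged 6179.8 ± 142 scaled fragments with R5020 and 2512 ± 59.9 with EtOH, 1.30 ± 0.03, and BCAR1, a docking protein of focal adhesions, rose by 1.19 ± 0.07, TNS1 by 1.13 ± 0.07 and PARVA by 0.94 ± 0.03. Of 7 non-integrin matrix receptors 5 fell and 1, SDC1, rose (0.53 ± 0.06). Of 4 hemidesmosome partners DST fell, with 2533 ± 73.9 scaled fragments with R5020 and 11818 ± 216 with EtOH, -2.22 ± 0.04, KRT5 rose and PLEC and CD151 were not called. In T47D-Y none of these 6 lists had a gene called with R5020 in libraries given water, beside 0.218% of all entries. Between the untreated lines collagen processing held 6 higher and 7 lower of 21, other matrix genes 6 and 5 of 14, adaptors 4 and 11 of 18, non-integrin receptors 2 and 3 of 7, proteases and inhibitors 1 and 5 of 8 and hemidesmosome partners 1 and 1 of 4. Of all entries 29.7% were called higher and 33.4% lower there. Among the proteases and inhibitors TIMP3 averaged 10.9 ± 0.87 in T47D-co and 921 ± 44.1 in T47D-Y, -6.28 ± 0.29. TIMP1 averaged 20.3 ± 4.80 in T47D-co and 223 ± 5.88 in T47D-Y, -3.42 ± 0.20.

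Entries whose 8 group means followed a member most closely were looked up over all tested entries, by Pearson's correlation of log2 means over 8 groups. For LAMA3 they were GRB10 (0.9994), USP31 (0.9992) and MAN1A1 (0.9989). For COL28A1 they were AGPAT4 (0.9991) and KIAA1244 (0.9991), for COL27A1 RFC2 and STAT5A (0.9984 each), for COL13A1 PCDH1 (0.9969), for LAMC3 CDKN1C (0.9922), for ITGB4 ATG2A (0.996) and for COL17A1 RMDN2 (0.9984). With 8 points and the search run over all entries, such values are a description of likeness only.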

How the data were processed

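Total RNA, extracted with Trizol for sequencing on an Illumina MiSeq per the labels' protocols, was read in 24 libraries of 8 groups, which were taken from the labels. Per the submitters' processing notes the tools were TopHat2 2.0.12 and Cufflinks 2.2.1 on GRCh37, also called hg19. Strand use is not given in the sources used here, so fragments of a gene and of an entry antisense to it cannot be told apart. The deposited signal values carry no stated unit per the file headers. In genes alone at their locus 97.8 to 98.9% of values per library fell within 0.05 of a whole number of steps, the step being 1 number per library. They were therefore taken as estimated fragments over a size factor. The factors were read as set apart in 4 blocks of 6 libraries (line by IFN state). The steps had a geometric mean of 0.996 to 0.999 in each block. Over all genes 62.3 to 65.1% were whole multiples, since fragments at shared loci were divided between genes, and no count test was run. The 48 genes stand alone at their locus in 31 cases and share it in 17.

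Each library was put back on its fragments and all 24 were scaled jointly by the median of ratios, using 14201 genes whose mean reached 50. Relative to that, the deposited scale moves T47D-co with IFN by -0.13, T47D-co with water by 0.05, T47D-Y with IFN by -0.21 and T47D-Y with water by 0.27 on the log2 scale. The 20162 entries that reached 10 scaled fragments in 3 or more libraries were fitted as log2(value + 1) with limma 3.58.1 in R 4.3.3 (8 group means, variance trend, 17 contrasts, two-sided tests, Benjamini-Hochberg adjustment, call threshold 0.05), after a check on simulated data. Left out were 25 entries whose symbol occurs more than once. Within groups the libraries correlated at 0.983 to 0.988 across entries. By the naming rule any member may be named with its group levels, and values in every library may be given for up to 8 rises and 8 falls per comparison among called members without overlap and with at least 50 scaled fragments in 1 of the groups. The text gives such values for the main ones of these and for some further members chosen after their values were seen. Members and lists were chosen with earlier results of these data known. Alternatives were other scalings, pseudocounts of 0.5 and 5, no minimum, voom weights, the compared groups alone, a replicate block, leaving out libraries, and sums over a locus.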

Additional observations from a re-analysis of the deposited data

Results flagged for a closer look

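The effect of R5020 differed between the lines by the interaction test of limma (Benjamini-Hochberg adjusted p under 0.05 over all entries) for 22 members in libraries given water (45.8%, beside 44.6% of all entries) and for 21 in libraries given IFN (43.8%, beside 46%). Values are the log2 change in T47D-co minus that in T47D-Y. With water the change was greater in T47D-co for COL13A1 (3.77), LAMC3 (3.06), COL27A1 (2.36), COL26A1 (2.26), LAMA3 (1.22), COL10A1 (0.88), COL5A1 (0.79), COL9A2 (0.52), ITGAV (0.29) and ITGA6 (0.29). It was lesser for COL28A1 (-2.12), ITGB6 (-1.88), ITGA5 (-1.44), ITGB7 (-0.90), LAMB3 (-0.81), LAMA5 (-0.68), COL12A1 (-0.50), ITGA2 (-0.43), LAMB2 (-0.40), ITGB4 (-0.37), COL18A1 (-0.33) and COL4A5 (-0.31).

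With IFN the change was greater in T47D-co for COL13A1 (2.84), COL27A1 (2.27), LAMC3 (2.27), COL26A1 (1.82), LAMA3 (1.41), COL10A1 (0.99), COL5A1 (0.63), ITGAV (0.42) and ITGA6 (0.34), and lesser for COL28A1 (-2.45), ITGB6 (-2.01), ITGA5 (-1.11), LAMA5 (-0.84), COL9A3 (-0.83), COL12A1 (-0.53), ITGA3 (-0.49), LAMB3 (-0.43), LAMB2 (-0.42), ITGB4 (-0.38), COL18A1 (-0.35) and ITGA2 (-0.22). The water and IFN libraries are separate samples, and 19 genes passed in both, or 39.6% beside 36% of all entries. With a pseudocount of 5 the water values of COL13A1 and LAMC3 were 3.12 and 2.36. ITGB7, with water, and COL9A3, with IFN, lost the call without the 4 libraries low in mitochondrial transcripts (-0.74 and -0.83), and COL9A3 also lost it in 6 of 12 fits that left out a library (-0.96 to -0.59) and was reversed in the sum over its locus (0.37). COL18A1 lost the call in 3 of 12 such fits with water (-0.39 to -0.28) and in 2 of 12 with IFN (-0.44 to -0.28), and its locus sums were reversed at 0.22 and 0.021. For ITGA2 with IFN the locus sum was not called (-0.11).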

How the results depend on the processing

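Of 270 member calls under each alternative, direction was kept everywhere except on the deposited scale (5) and, of 102 calls at shared loci, in sums over the locus (16). The replicate number as a block left 270 of 270 calls as they were. In their deviations from group means same-numbered libraries correlated at -0.0557 to 0.0563 and differently numbered ones at -0.127 to 0.105. Pairing by number was not seen in these values, which cannot tell whether libraries were prepared in numbered sets. With the block the count between untreated lines was 40 and that for R5020 in T47D-co given water 29. Leaving out 1 library kept 1752 of 1878 calls and lost 126. The ranges of members called were 36 to 40 for the untreated lines, 36 to 41 with R5020, 37 to 40 with IFN, 37 to 39 with both, 28 to 30 for R5020 in T47D-co with water and 27 to 30 with IFN, 21 to 24 and 20 to 22 for the line by R5020 differences, 0 to 1 and 0 to 5 for IFN in T47D-co with EtOH and with R5020, 0 to 2 for IFN in T47D-Y with either, and 0 to 1 for R5020 by IFN in T47D-co. The counts for IFN moved most: on the deposited scale, 17 and 14 in T47D-co with EtOH and R5020, 34 and 32 in T47D-Y, and 15 for line by IFN (beside 41.9, 35.7, 73, 73.3 and 47.2% of all entries); for T47D-co with R5020, 1 by quantile normalization, with no minimum, with the compared groups alone and without the libraries low in mitochondrial transcripts; for T47D-Y, 1 with no minimum (EtOH and R5020) and by quantile normalization (R5020), 4 and 5 by voom weights, and 0 without the low mitochondrial libraries, while the compared groups alone also gave 2 with EtOH but with ITGA5 and ITGB6 no longer called (adjusted p = 0.0579 and 0.0625). Reversed on the deposited scale were COL4A5 between untreated lines (-0.068) and with IFN in T47D-co (-0.012), and ITGA5 (-0.021), ITGB6 (-0.18) and ITGA6 (-0.33) with IFN in T47D-Y. Reversed in locus sums were, between lines, ITGA5 (-0.44 untreated, -1.63 with R5020, -0.49 with IFN, -1.78 with both), COL9A3 (0.031, 0.48, 0.15 and 0.52), COL4A6 (0.14 untreated) and COL16A1 (0.087 with R5020, 0.022 with both); COL9A3 for R5020 with IFN (0.34) and its line difference (0.37); and COL18A1 for R5020 in T47D-co with water (0.25) and its line differences (0.22 with water, 0.021 with IFN). A locus sum is led by the most abundant gene of the locus by its construction; for the other changes the cause was not tested. COL2A1, COL19A1, COL20A1 and COL6A5 were genes of few scaled fragments, and the part of depth in their calls was not tested.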
